A study of Mus musculus with 16 samples.

Results

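Polyadenylated RNA carried by exosomes of 2 fetal liver stromal lines, AFT024 and BFC012, was compared. The AFT024 exosome group and the BFC012 exosome group hold 2 samples each, 4 of the 16 samples of the series, which fall into 8 groups. Both lines came from the fetal liver of C57BL/6 mice at 14.5 dpc; the labels call AFT024 supportive of haematopoietic stem and progenitor cells and BFC012 non-supportive. There is 1 line of each kind, so the supportive class and the identity of the line cannot be told apart. For the exosomes, RNA from several extractions was combined and then divided into 2 technical sequencing replicates, which the submitters merged, so each group has 1 value per gene and no replicate error can be given. The producing cells of both lines, sequenced in the same way, served as a second comparison that shares no sample with the exosomes.

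Exosomes are small vesicles that form inside multivesicular endosomes and are released when these fuse with the cell surface. Sorting of their cargo draws on the ESCRT proteins, on tetraspanins and on ceramide made by neutral sphingomyelinase, and Rab27 GTPases move the endosomes to the membrane. Their RNA derives from the RNA of the producing cell but is not a proportional copy of it, and much of it can be fragmented. In the fetal liver, stromal cells supply Kit ligand, the chemokine Cxcl12, angiopoietin-like proteins and other factors to expanding blood stem cells, and stromal lines from this tissue are used to keep such cells in culture.

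The read table gave 9038471 reads in named genes for AFT024 exosomes and 16344350 for BFC012 exosomes, and 39385534 and 35874383 for the AFT024 and BFC012 cells. A gene without reads could therefore be at up to 0.332 RPM (reads scaled to the library's total) in AFT024 exosomes and 0.184 in BFC012 exosomes (3 reads of the total, counting error only). In AFT024 exosomes 11.9% of reads and in BFC012 exosomes 11.2% fell in the 10 most read genes. Ratios are AFT024 over BFC012 read ratios after scaling to the median gene, given as a fold or as log2, with an exact 95% Clopper-Pearson interval that covers counting error only. FPKM is the length-normalised level that the submitters deposited. Its median ratio lay at -0.36 on the log2(FPKM + 1) scale, so FPKM ratios tend to read lower than read ratios. Single genes can go the other way, such as Igfbp4 with a log2 ratio of 0.39 in reads and 1.36 in FPKM plus 1. The intervals do not cover differences between cultures, vesicle preparations or libraries.

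The exosomes of the lines differed in many transcripts. Of 11038 genes with at least 50 reads over both groups, 1518 were at least 2-fold higher in AFT024 exosomes (13.8%) and 1313 at least 2-fold lower (11.9%), together 25.6%, and 8207 lay within 2-fold. The interval lay wholly beyond 2-fold for 1003 of the higher and 850 of the lower genes. At 4-fold the counts were 499 higher and 416 lower, and at 16-fold 176 and 152. No read was found in BFC012 exosomes for 27 measured genes and none in AFT024 exosomes for 45. Such genes reached 50 reads through the other group alone, and BFC012 exosomes have more reads, so these counts are not on equal terms. Among the genes that also had an FPKM value, 515 of 1411 higher genes were at least 2-fold higher in FPKM plus 1 as well and 7 were 2-fold lower. Of 1254 lower genes 977 were also lower in FPKM plus 1 and 4 were higher.

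The genes highest in AFT024 exosomes encode a developmental regulator, an imprinted retroelement-derived protein and several surface proteins. Peg10 (chromosome 6, 4747306 to 4760517, mm10), an imprinted gene derived from a retrotransposon whose protein resembles a retroviral Gag, had 20989 reads in AFT024 and 20 in BFC012 exosomes, and its FPKM was 2058 against 1.08. Its read ratio was 1973-fold (1277 to 3230.3), and it was 1414-fold in the cells (745 to 3092). Sall1 (chromosome 8, 89027248 to 89044162), a zinc finger transcription factor of organ development, had 1446 reads against 1. Its ratio of 2718-fold has a wide interval (487 to 107435) because 1 read stands in the denominator. Thbd (chromosome 2, 148404466 to 148408188), the endothelial anticoagulant thrombomodulin, had 4659 and 30 reads, a 292-fold difference (204 to 433) that matched 294-fold in the cells (213 to 418). Pcdh7, a protocadherin that joins cells, had 896 reads against 0, at least 561-fold higher when the 0 is set to 3 reads, as for every group without reads.

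Other surface and secreted proteins were also far higher in AFT024 exosomes. Lrrc32, the anchor of latent TGF-beta at the cell surface, had 710 reads against 2, a ratio of 667-fold (184 to 5521). Lpl, lipoprotein lipase, had 753 against 5 (283-fold, 121 to 874), and Cspg4, the pericyte proteoglycan NG2, had 1294 against 11 (221-fold, 123 to 444). In reads all 3 were also more than 100-fold higher in the cells, with 5153 and 1 for Lrrc32, 6014 and 33 for Lpl, and 1328 and 1 for Cspg4. The FPKM of Lpl lay much less far apart than its reads, at 9.3 and 0.679 in exosomes and 37.5 and 0.87 in cells. The water channel Aqp1 was 59.1-fold higher in exosomes (1194 and 38 reads; 42.8 to 83.9) but 1017-fold higher in cells (684 to 1588). Igfbp6, a binding protein with a preference for IGF-II, was 44.0-fold higher in exosomes and 35.7-fold in cells. The synaptic vesicle gene Syn2 was 37.4-fold higher in exosomes, with 616 and 31 reads, and 94.5-fold in cells.

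The genes lowest in AFT024 exosomes include transcripts of mesothelial and urothelial tissue. Plce1 (chromosome 19, 38481109 to 38785030), a phospholipase C that answers to Ras, had 3 reads in AFT024 and 4461 in BFC012 exosomes, a 791-fold difference (271 to 3837), against 58.5-fold in cells. The uncharacterised gene 5730409E04Rik (chromosome 4, 126609818 to 126614371) had 1 and 3784 reads, 2013-fold apart (361 to 79530.3). The uroplakin genes, whose proteins form the plaques of the bladder lining and which mesothelium also expresses, were low in AFT024 as well. Upk3b had 4 reads against 1286 (171-fold lower, 66.6 to 629) and Upk1b 2 against 570 (152-fold lower, 41.8 to 1255). Tenm3, a teneurin that guides axon contacts, had 7 against 3575 reads (272-fold lower, 132 to 676), and was 2648-fold lower in cells. Tbx20, a T-box factor of the heart, had 3 against 1562 reads (277-fold lower, 94.6 to 1345). Myrf, a membrane-bound transcription factor known from myelin, had 4 against 1444 (192-fold lower, 74.8 to 706). The plot of the named genes shows the level of each in the 4 groups.

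**Figure D1:**
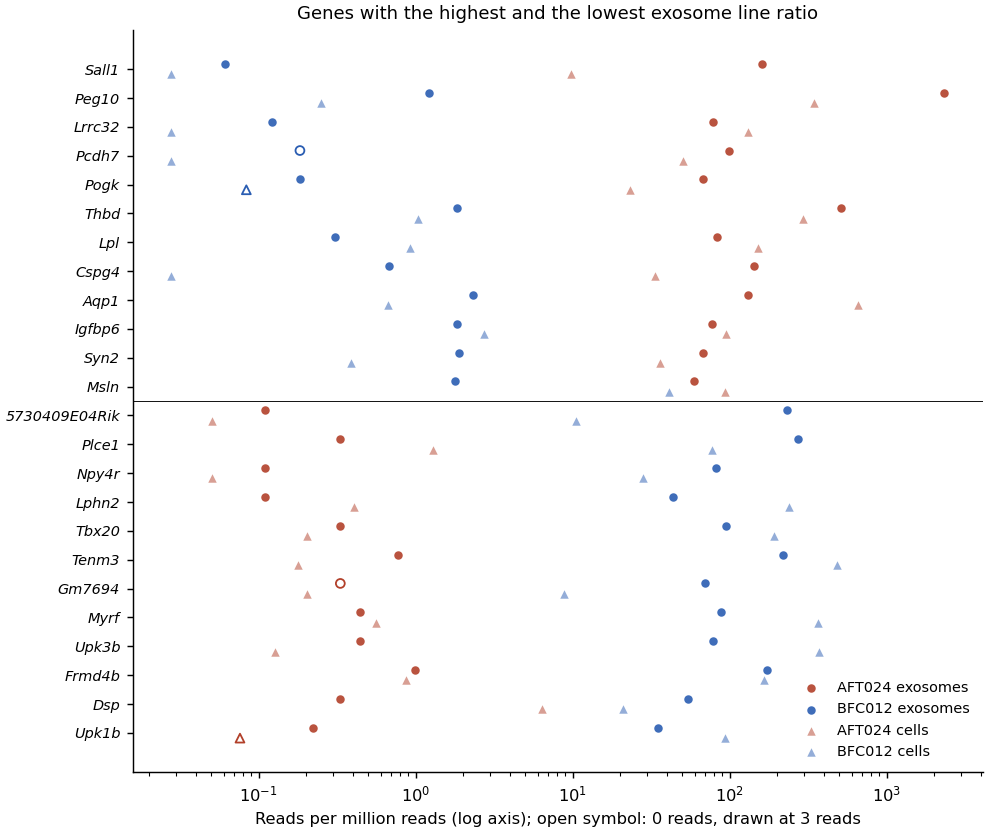
Level in RPM (x axis, log scale) of the 12 genes with the highest and the 12 with the lowest exosome ratio, 1 circle per exosome group and 1 triangle per cell group, red for AFT024 and blue for BFC012; an open symbol is 0 reads, drawn at 3 reads. Thbd lay about as far apart in exosomes (292-fold) as in cells (294-fold), while Msln was 34.7-fold higher in exosomes against 2.36-fold in cells and Dsp 158-fold lower against 3.2-fold.

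The difference between the cells was in large part found again in the exosomes. Across 10895 genes measured in both, the exosome and cell log2 ratios had a Spearman coefficient of 0.578 and a Pearson coefficient of 0.792; the points share the producing lines and the annotation. In the cells 10.7% of 12669 genes were at least 2-fold higher in AFT024 and 8.06% lower. Of 893 genes at least 2-fold higher in AFT024 cells, 67.9% were also at least 2-fold higher in its exosomes, and of 705 lower in the cells 72.2% were lower in the exosomes. Of 274 genes at least 16-fold apart in cells, 270 were at least 2-fold apart in the same direction in exosomes, and 205 of the 274 had a smaller log2 ratio there. Among the 78 genes with the highest cell ratios the median log2 ratio was 7.73 in cells and 6.25 in exosomes, and among the 66 with the lowest it was -7.50 and -5.12. These genes were selected by their cell ratio, which by itself makes a second measure of them less extreme, so the smaller exosome ratios are a description.

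**Figure D2:**
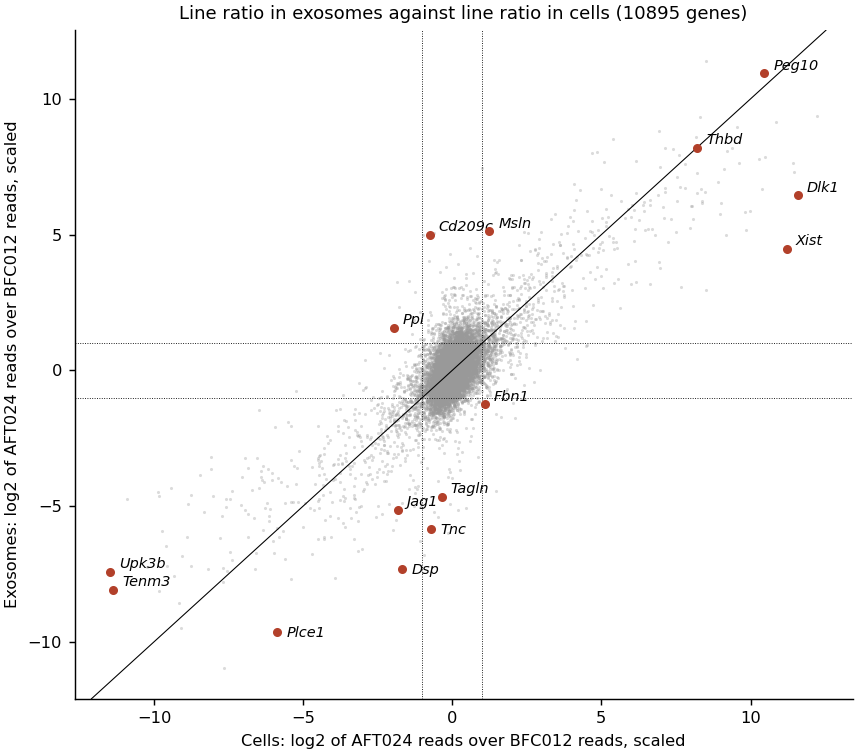
Log2 read ratio AFT024 over BFC012 in exosomes (y axis) against the same in cells (x axis), 1 point per gene for the 10895 genes measured in both, with the line of equal ratios, dotted lines at 2-fold and named genes in red. Most genes lie within 2-fold in both, and the genes far apart in cells lie mostly on the same side in exosomes.

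The reverse was less complete. Of 1456 genes at least 2-fold higher in AFT024 exosomes and measured in both, 606 were 2-fold higher in the cells (41.6%), 841 lay within 2-fold there (57.8%) and 9 were 2-fold lower. Of 1276 lower genes, 509 were lower in the cells (39.9%), 760 lay within 2-fold (59.6%) and 7 were higher. The lowest quintile of protein-coding genes by exosome reads (50 to 210 reads) had 24.8% higher and 15.2% lower genes against 7.17% and 12.3% in the highest quintile, so part of the exosome calls rest on few reads.

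Among genes with at least 200 reads in the higher exosome group and in the higher cell group, Cd209c lay furthest above its cell ratio. This C-type lectin, of the DC-SIGN family of pathogen receptors, had 12924 reads in AFT024 and 766 in BFC012 exosomes, with an FPKM of 558 and 23.7, and was 31.7-fold higher (29.5 to 34.2). In the cells it had 533 and 840 reads and was 1.68-fold lower in AFT024. Msln, the mesothelial surface protein mesothelin, had 535 and 29 reads in exosomes (34.7-fold higher, 23.9 to 52.3) and 3699 and 1467 in cells (2.36-fold higher). Ppl, the desmosomal protein periplakin, had 3682 and 2340 reads in exosomes (2.96-fold higher, 2.81 to 3.12), with 344 and 1251 reads in the cells.

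Other genes lay much further apart in exosomes than in cells. Tnc, the matrix glycoprotein tenascin C, had 65 reads in AFT024 and 6948 in BFC012 exosomes, with an FPKM of 0.465 and 36.4, and was 56.9-fold lower in AFT024 (44.6 to 73.8). In the cells its reads were 11881 and 18235, a 1.64-fold difference. Boc, a Hedgehog co-receptor, had 2 and 241 exosome reads, 64.1-fold apart (17.6 to 532), against 613 and 627 reads in cells. Prkd1, protein kinase D1, had 1 and 208 exosome reads, 111-fold lower in AFT024 (19.6 to 4391), and was 1.93-fold lower in cells. The desmosomal plaque gene Dsp had 3 and 892 reads in exosomes (158-fold lower, 53.9 to 768) against 253 and 757 in cells (3.2-fold lower). The converse held for transcripts that set the cells apart more than the exosomes. Dlk1, a Delta-like membrane protein of fetal stroma, had 29686 and 9 reads in cells (3087-fold) but 233 and 5 in exosomes (87.6-fold, 37.0 to 272). Xist, the long RNA that silences an X chromosome from within the nucleus, had 43076 and 17 reads in cells, and 201 and 17 in exosomes (22.2-fold, 13.5 to 38.9).

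The most abundant exosome transcripts included genes close to the median and genes past 2-fold. Kif1c, a kinesin motor, had the most reads in both, 339615 in AFT024 and 631504 in BFC012 exosomes, at an FPKM of 3159 and 4369.7 and a log2 ratio of 0.02. Sos2, an activator of Ras, had 103925 and 192846 reads and also a log2 ratio of 0.02; both ratios fall to -0.04 under total-read scaling and -0.47 in FPKM plus 1. Kctd10, an adaptor of cullin ubiquitin ligases, was 2.28-fold lower in AFT024 exosomes (77800 and 333986 reads; 2.27 to 2.3) and 1.42-fold lower in cells. Ftl1, the ferritin light chain, was 2.97-fold higher (81376 and 51517 reads; 2.94 to 3.0) and 1.16-fold higher in cells. Of the 13 listed abundant exosome transcripts 2 were at least 2-fold higher (15.4%) and 3 lower (23.1%), against 13.8% and 11.9% of all measured genes, and of 3 nuclear-retained RNAs 1 was higher and 0 lower. Eef1a1, the elongation factor that brings tRNA to the ribosome, was 1.59-fold higher in exosomes and 1.12-fold lower in cells. Reads of ferritin, elongation factor and ribosomal protein genes can be split with their processed pseudogenes, so the values of these genes are uncertain to that extent.

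Transcripts of the vesicle machinery did not move one way. Of 39 measured genes for exosome markers and vesicle formation, 4 were at least 2-fold higher and 4 lower. Each is 10.3% of the list, no more than the 13.8% and 11.9% of all measured genes. The median log2 ratio was -0.27, where all measured genes had -0.00. Among the tetraspanins, Cd9 had 435 and 157 reads (5.21-fold higher, 4.33 to 6.29) and Cd63 519 and 234 (4.17-fold higher, 3.57 to 4.89), while Cd81 had 105 and 244 (1.24-fold lower, 0.98 to 1.57). In the cells Cd9 was 1.27-fold and Cd63 1.52-fold higher. Mfge8, a phosphatidylserine-binding coat protein of vesicles, and Lamp2, a lysosomal membrane protein, were the other higher genes. Among the genes of release, Smpd3, neutral sphingomyelinase 2, was 41.7-fold lower (29 and 2274 reads; 29.0 to 62.4) and 70.0-fold lower in cells. The secretory GTPase Rab27b was 6.68-fold lower (25 and 314 reads; 4.44 to 10.5), and the ESCRT adaptor Pdcd6ip, known as ALIX, was 2.91-fold lower (1205 and 6594 reads; 2.74 to 3.1), against 1.4-fold in cells. Tsg101, an ESCRT-I subunit, was 1.47-fold higher.

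Ribosomal protein transcripts were higher as a body in AFT024 exosomes and not in AFT024 cells. Of 75 cytosolic ribosomal protein genes 27 were at least 2-fold higher (36.0%, against 13.8% of all measured genes) and 0 lower; 73 had a log2 ratio above 0 and the median was 0.92, against -0.12 in the cells, where 0 were higher and 1 lower. Rps2 had 44445 and 27479 reads in exosomes (3.04-fold, 2.99 to 3.09) at an FPKM of 7329 and 3269, and differed 1.01-fold in cells. Rpl38 had 6612 and 3610 reads (3.44-fold, 3.31 to 3.59) and Rpl4 37904 and 72632 (1.02-fold lower), so the members were spread. Of 75 mitochondrial ribosomal protein genes 16 were higher and 1 lower (median 0.67; 0.22 in cells), with Mrpl30 3.13-fold higher and Mrps35 2.06-fold lower. Of 76 nuclear genes of oxidative phosphorylation 18 were higher and 0 lower (median 0.63; 0.00 in cells). Atp5g1, which encodes a subunit of the ATP synthase ring, had 1200 and 601 reads (3.75-fold, 3.4 to 4.15) against 1.11-fold in cells.

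These lists hold short transcripts. The shortest decile of protein-coding genes by exonic length (374 to 2000 bases, n = 1046) had a median exosome log2 ratio of 0.49, with 26.6% higher and 5.64% lower, and a median of 0.12 in cells. The 9 other deciles had exosome medians between -0.14 and 0.13. That decile held 40 of the 75 cytosolic ribosomal protein genes (53.3%), 30 of the 75 mitochondrial (40.0%) and 45 of the 76 oxidative phosphorylation genes (59.2%). Without the 3 lists the 931 remaining genes of the shortest decile had a median of 0.41. The part of transcript length in the ratios of these lists was not tested.

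**Figure D3:**
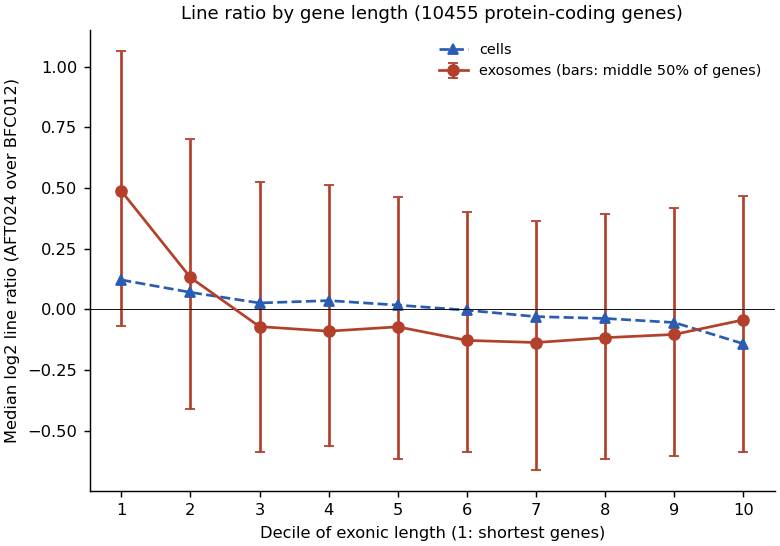
Median log2 read ratio AFT024 over BFC012 (y axis) in deciles of protein-coding genes by exonic length (x axis), as circles for exosomes, with bars over the middle 50% of genes, and triangles for cells. The shortest decile stands at 0.49 in exosomes and 0.12 in cells, and the other deciles lie between -0.14 and 0.13 in exosomes.

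Other housekeeping lists had few members past 2-fold, apart from the histones. Of all measured genes 13.8% were higher and 11.9% lower. Translation factors had 2 of 35 higher and 0 lower (median 0.49), with Tpt1 2.53-fold and Eef1b2 2.75-fold higher. Proteasome subunits had 2 of 35 higher (median 0.12), chaperones and disulfide isomerases of the endoplasmic reticulum 1 of 22 (median 0.30) and glycolysis 1 of 16 (median 0.12), each with 0 lower. Splicing proteins of the hnRNP and SR families had 2 of 34 higher and 3 lower (median -0.28), and DNA replication genes 1 of 32 higher and 2 lower (median -0.09). Of 71 listed histone genes only 5 were measured, so the list is seen in small part. Of these 5, 4 were at least 2-fold higher, 2 of them with the whole interval above. The fifth, H2afx, was 1.12-fold higher (0.886 to 1.4) in reads but lower in FPKM. In the cells 2 of the 5 were at least 2-fold higher, and 4 of the 5 belong to the shortest decile.

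Part of the cholesterol synthesis transcripts were higher in AFT024 exosomes. The pathway makes sterol from acetyl-CoA in the endoplasmic reticulum and is held in check by sterol through the SREBP factors. Of 22 measured genes 7 were at least 2-fold higher (31.8%, against 13.8% of all measured genes) and 0 lower, and the median log2 ratio was 0.72; the cells gave 0 higher, 1 lower and a median of -0.22. Fdps, which makes farnesyl diphosphate, had 537 and 318 reads (3.17-fold, 2.76 to 3.66). Msmo1, which removes sterol methyl groups, had 236 and 138 reads in exosomes (3.21-fold, 2.59 to 4.0) but was 1.32-fold lower in cells. Hsd17b7 had 252 and 98 reads (4.83-fold, 3.81 to 6.17). Among the members within 2-fold, Mvd was 1.69-fold lower (1.54 to 1.85) and Stard4 1.04-fold lower (0.979 to 1.11). The shortest decile held 2 of these 22 genes. A form of the sterol regulatory element, TCAC, any base, then CCAC, was searched on either strand of the RefSeq promoter windows described below. It was found in 1 of the 15 measured genes with an entry, Hmgcs1, and in 1.36% of the 8228 measured genes with an entry.

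**Figure D4:**
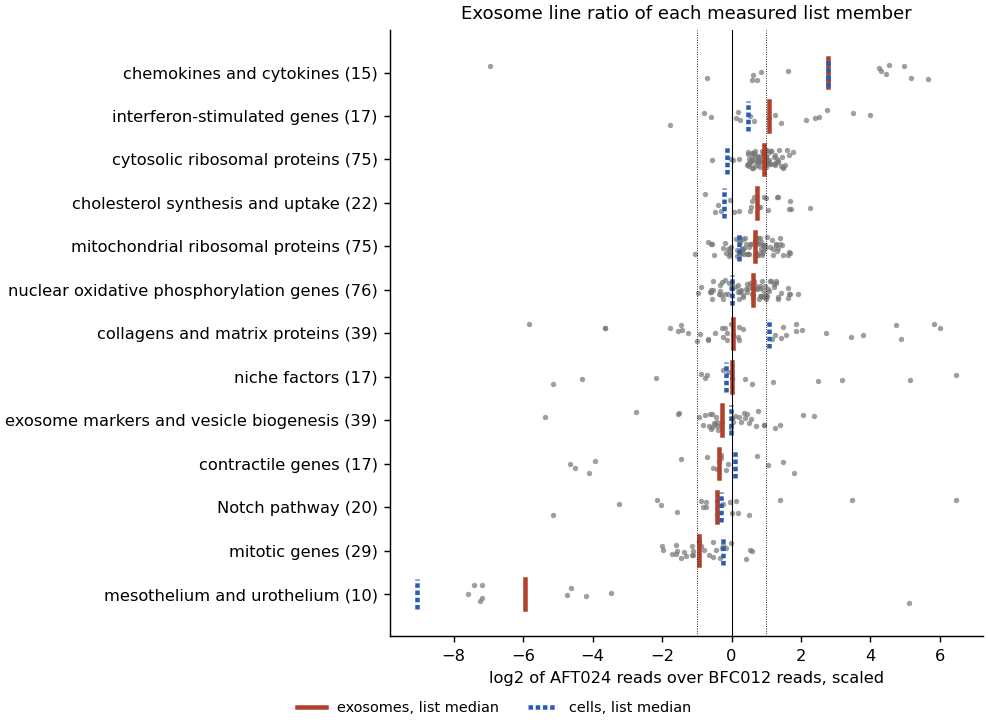
Log2 read ratio AFT024 over BFC012 in exosomes (x axis) of the measured members of 13 lists, 1 grey point per gene, with the list median as a red bar for exosomes and a dashed blue bar for cells; dotted lines mark 2-fold. The cytosolic ribosomal protein median stands at 0.92 against -0.12 in cells, and the mitotic median at -0.93 against -0.24.

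Mitotic transcripts were lower in AFT024 exosomes. Of 29 measured genes 13 were at least 2-fold lower (44.8%, against 11.9% of all measured genes), 10 of them with the whole interval below, and 0 were higher; the median log2 ratio was -0.93. In the cells 0 were higher or lower by 2-fold and the median was -0.24. Cdc20, an activator of the anaphase-promoting complex, had 733 and 5417 reads at an FPKM of 47.2 and 180.1 (3.93-fold lower, 3.64 to 4.25), and in cells 6490 and 6928 reads (1.14-fold lower). The midzone kinesin Kif20a had 932 and 6993 reads (3.99-fold lower, 3.73 to 4.28), and the microtubule-depolymerising kinesin Kif2c 280 and 1724 (3.28-fold lower, 2.89 to 3.73). Ccnb1, cyclin B1, had 722 and 3003 reads (2.21-fold lower, 2.04 to 2.4). Cenpf, Birc5 and Top2a were the 3 members above 0 in reads, at 1.5-, 1.44- and 1.33-fold higher, while the FPKM of Top2a was lower in AFT024 (28.6 and 31.6).

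The promoters of mitotic genes carry cell cycle homology regions and CCAAT boxes as known elements. In windows of 300 bases from RefSeq on GRCm38.p6 (250 before the start and 50 after), TTTGAA on either strand was found in 18 of the 24 mitotic genes with an entry and in 20.2% of all 27025 genes. CCAAT on either strand was found in 19 of the 24 and in 41.1% of all genes. These searches were made after the list values were known and describe the list as a set of cell cycle genes. The 250 bases before the start of the 2 members with the largest ratios and a match are given as examples, with the match in capitals, for Cdc20 on chr4:118437344-118437593, minus strand, and Kif2c on chr4:117178773-117179022, minus strand. The match begins 18 bases before the start in Cdc20 and 103 bases before it in Kif2c, where it stands on the opposite strand.
Cdc20: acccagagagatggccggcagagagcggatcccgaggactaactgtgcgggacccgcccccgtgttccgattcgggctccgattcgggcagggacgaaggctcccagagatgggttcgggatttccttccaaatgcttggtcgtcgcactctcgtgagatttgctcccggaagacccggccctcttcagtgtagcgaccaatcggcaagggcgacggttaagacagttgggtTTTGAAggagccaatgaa
Kif2c: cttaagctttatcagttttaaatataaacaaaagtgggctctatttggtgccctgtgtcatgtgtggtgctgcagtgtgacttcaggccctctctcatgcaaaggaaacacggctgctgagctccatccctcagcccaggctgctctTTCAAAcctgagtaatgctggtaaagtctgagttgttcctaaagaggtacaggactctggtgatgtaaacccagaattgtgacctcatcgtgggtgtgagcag

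Interferon-stimulated genes, which act against viruses and are switched on by interferon signalling, were in part higher in AFT024 exosomes, from low levels. Of 17 measured genes 9 were at least 2-fold higher (52.9%, against 13.8% of all measured genes and 24.8% in the lowest quintile by reads) and 1 lower (11.9% of all), with a median log2 ratio of 1.09. In the cells 6 of 16 were higher and 0 lower, and the median was 0.46. Ifit1, which binds viral RNA ends, had 110 and 13 reads (15.9-fold higher, 8.93 to 30.8) and an FPKM of 2.2 and 0.229, and was 2.83-fold higher in cells. Irf7, the factor that amplifies interferon production, had 66 and 11 reads (11.3-fold, 5.91 to 23.7), and Xaf1, a proapoptotic partner of XIAP, 61 and 17 (6.75-fold, 3.89 to 12.3). Ifit3 had 45 and 19 reads (4.45-fold, 2.55 to 8.06) and in cells 11 and 30 (2.91-fold lower); a near-identical copy, Ifit3b, makes its count uncertain. B2m, the light chain of MHC class I, had 316 and 223 reads (2.66-fold, 2.24 to 3.18). The lower member was Tap1, the peptide transporter of antigen presentation, with 26 and 167 reads (3.42-fold lower, 2.25 to 5.38).

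The interferon-stimulated response element was searched as GAAA, any 2 bases, then GAAA, on both strands of the same windows. It was found in 12 of the 23 listed genes with an entry and in 8 of 15 measured ones, against 3.99% of all 27025 genes and 3.29% of the 8228 measured genes with an entry. 3 higher members with a match are shown over the 250 bases before the start, plus strand, with matches in capitals. Ifit1 lies at chr19:34640639-34640888, Ifit3 at chr19:34583279-34583528 and B2m at chr2:122147437-122147686. Ifit1 holds 2 matches that begin 104 and 85 bases before the start, Ifit3 2 that begin 156 and 122 bases before it, and B2m 1 that begins 139 bases before it.
Ifit1: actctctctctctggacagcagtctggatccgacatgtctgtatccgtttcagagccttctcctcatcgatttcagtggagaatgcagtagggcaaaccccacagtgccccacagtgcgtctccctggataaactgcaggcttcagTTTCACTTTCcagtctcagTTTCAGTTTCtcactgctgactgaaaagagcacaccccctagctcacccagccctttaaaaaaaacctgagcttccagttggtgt
Ifit3: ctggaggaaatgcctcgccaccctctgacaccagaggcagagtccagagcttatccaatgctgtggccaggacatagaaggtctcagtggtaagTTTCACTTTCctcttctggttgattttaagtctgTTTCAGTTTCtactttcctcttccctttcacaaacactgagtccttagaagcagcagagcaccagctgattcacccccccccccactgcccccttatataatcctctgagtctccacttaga
B2m: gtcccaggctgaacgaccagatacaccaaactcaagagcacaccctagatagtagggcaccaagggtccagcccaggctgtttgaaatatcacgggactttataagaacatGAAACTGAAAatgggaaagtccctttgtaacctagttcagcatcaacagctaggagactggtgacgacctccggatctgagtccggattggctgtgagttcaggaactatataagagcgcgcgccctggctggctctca

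Most measured chemokine and cytokine transcripts were higher in AFT024 exosomes and in its cells. Of 15 measured genes 9 were at least 2-fold higher and 1 lower, against 13.8% and 11.9% of all measured genes, with a median log2 ratio of 2.77 (2 genes at their bound). The cells gave 9 higher and 2 lower, against 10.7% and 8.06% of all, and the same median of 2.77. The monocyte attractants Ccl2 and Ccl7 had 265 and 25 reads (19.9-fold, 13.2 to 31.4) and 170 and 17 reads (18.8-fold, 11.4 to 33.0). Cxcl10, an interferon-induced attractant of T cells, had 108 and 4 reads (50.8-fold, 19.3 to 189.6). Ccl5 with 57 reads and the neutrophil attractant Cxcl5 with 50 had none in BFC012 exosomes, at least 35.7-fold and 31.3-fold higher. The alarmin Il33 was the lower gene, with 1 read in AFT024 and 234 in BFC012 exosomes (124-fold lower, 22.1 to 4938). A form of the NF-kB element, GGGA, any base, then TTTCC, on either strand, was found in 4 of 22 listed genes with an entry, of which Csf1 was measured, and in 0.466% of all genes.

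Factors of the stem cell niche were divided. Of 17 measured genes 5 were at least 2-fold higher (29.4%) and 3 lower (17.6%), with a median log2 ratio of 0.02. The shares of all measured genes were 13.8% and 11.9%. Dlk1 has its values above. Angptl4, an inhibitor of lipoprotein lipase, had 224 and 12 reads (35.1-fold higher, 19.7 to 68.9). Angptl2 had 500 and 168 reads (5.59-fold higher, 4.69 to 6.7), osteopontin, Spp1, had 58 and 12 (9.09-fold, 4.83 to 18.6), and pleiotrophin, Ptn, had 99 and 81 (2.3-fold, 1.7 to 3.12). The Notch ligand Jag1 had 10 and 662 reads (35.2-fold lower, 19 to 73.8), Wnt5a 2 and 74 (19.7-fold lower, 5.26 to 166) and Bmp4 21 and 179 (4.53-fold lower, 2.88 to 7.51). The 2 factors best known for holding stem cells in the niche did not pass 2-fold in scaled reads. Cxcl12 had 7936 and 27285 reads at an FPKM of 124 and 324, 1.83-fold lower in AFT024 (1.78 to 1.88), and 2.46-fold lower in cells. In FPKM plus 1 its log2 exosome ratio was -1.38, which is past 2-fold. Kitl had 372 and 828 reads and was 1.18-fold lower (1.05 to 1.34).

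Notch pathway genes, in which ligands on a cell bind receptors on its neighbour, split by member. Of 20 measured genes 3 were higher (15%) and 5 lower (25%), against 13.8% and 11.9% of all measured genes. Among the receptors, Notch3 had 8280 and 1412 exosome reads at an FPKM of 49.3 and 6.23 (11-fold higher, 10.4 to 11.7), and Notch1 264 and 2217 (4.47-fold lower, 3.93 to 5.09). Notch3 was 10.2-fold higher in cells and Notch1 1.13-fold lower. Rbpj, the DNA-binding partner of the receptor, was 2.64-fold higher, the target Hes1 9.42-fold lower (7 and 124 reads; 4.44 to 23.9) and the receptor protease Adam10 4.05-fold lower.

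BMP and TGF-beta genes differed both ways, 7 of 30 higher (23.3%) and 9 lower (30.0%), against 13.8% and 11.9% of all measured genes. Of the ligands, Tgfb1 had 135 and 58 reads (4.38-fold higher, 3.19 to 6.06) and Tgfb3 139 and 2161 (8.27-fold lower, 6.96 to 9.89). The BMP antagonist Grem1 had 4119 and 1494 reads (5.18-fold higher, 4.88 to 5.5), and the activin antagonist Fst 18 and 149 (4.4-fold lower). Smad6, an inhibitory Smad, had 21 and 287 reads (7.27-fold lower, 4.67 to 11.9), while Smad7 was 2.82-fold, Id1 2.33-fold and Id3 2.21-fold lower in exosomes. In the cells Smad6 and Id3 were 1.13-fold and 1.3-fold higher.

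Wnt pathway genes had 2 of 22 higher (9.09%) and 5 lower (22.7%), against 13.8% and 11.9% of all measured genes. Ror2, a receptor for Wnt5a, had 197 reads and none in BFC012 exosomes, at least 123-fold higher. Apc, the scaffold that destroys beta-catenin, had 8233 and 5305 reads (2.92-fold higher, 2.82 to 3.02) and was 1.57-fold lower in cells. The receptor Fzd5 had 437 and 3949 reads (4.81-fold lower, 4.35 to 5.32) and Wnt4 23 and 248 (5.74-fold lower, 3.74 to 9.22). Retinoid genes had 2 of 10 higher and 4 lower. Aldh1a1, which makes retinoic acid, had 11 and 548 reads (26.5-fold lower, 14.7 to 53.4), and Cyp26b1, which degrades it, 50 and 771 (8.2-fold lower, 6.16 to 11.2). Immediate early genes had 8 of 23 higher (34.8%) and 3 lower (13.0%), with Jun 4.04-fold higher and Fos 3.51-fold lower. Apoptosis regulators had 4 of 34 higher (11.8%) and 2 lower (5.88%), with Birc3 4.54-fold and Bid 4.05-fold higher.

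Matrix transcripts were divided in exosomes although AFT024 cells held more of most of them. Of 39 measured collagen and matrix genes 15 were higher (38.5%) and 8 lower (20.5%) in exosomes (median log2 ratio 0.05). The shares of all measured genes were 13.8% and 11.9%. The cells gave 21 higher and 2 lower (median 1.08), against 10.7% and 8.06% of all genes there. Col1a2 had 171 and 5 exosome reads (64.3-fold higher, 27.0 to 201), Col6a3 1998 and 141 (26.6-fold, 22.4 to 31.8) and Tgfbi 121 and 4 (56.9-fold, 21.6 to 212). Col1a1, which encodes the chief chain of collagen I, had 79061 and 18230 reads in cells (4.06-fold higher) but 470 and 969 in exosomes (1.1-fold lower, 0.981 to 1.23). Fibronectin, Fn1, had 3140 and 20180 exosome reads (3.42-fold lower, 3.29 to 3.55) and was 1.25-fold lower in cells. Thbs1, thrombospondin 1, was 2.66-fold lower and the crosslinking enzyme gene Lox 2.89-fold lower.

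Contractile genes of smooth muscle had 3 of 17 higher (17.6%) and 5 lower (29.4%), against 13.8% and 11.9% of all measured genes. Acta2, smooth muscle actin, had 80 and 2285 exosome reads at an FPKM of 2.69 and 51.0, 15.2-fold lower in AFT024 (12.2 to 19.2), while the cells had 48812 and 50419 reads, 1.1-fold apart. Tagln had 10 and 475 reads (25.3-fold lower, 13.6 to 53.0) against 1.28-fold in cells, and Myl9, the regulatory light chain of myosin, 7 and 302 (23.0-fold lower, 11 to 57.6) against 2.39-fold. The higher genes were the actin crosslinkers Flna (14027 and 7520 reads; 3.51-fold, 3.41 to 3.61), Actn4 (2.77-fold) and Actn1 (2.07-fold). Of 17 tubulin and actin genes 5 were higher (29.4%) and 2 lower (11.8%). Tuba4a had 1238 and 331 reads (7.03-fold higher, 6.22 to 7.96) and was 1.05-fold higher in cells, whereas Tubb4b was 2.23-fold lower. The Tuba1 genes are near-identical copies and their counts are uncertain.

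Annexins, galectins and S100 proteins bind calcium, lipids or sugars and are common in vesicle protein lists. Of 17 measured genes 6 were higher (35.3%) and 3 lower (17.6%), against 13.8% and 11.9% of all measured genes. Lgals3 had 2264 and 125 reads (34-fold higher, 28.4 to 41.1) against 7.87-fold in cells, S100a4 5697 and 873 (12.3-fold, 11.4 to 13.2) against 2.76-fold, and Lgals1 16230 and 6570 (4.64-fold, 4.51 to 4.78) against 2.43-fold. Anxa8 had 146 and 4967 reads (18.1-fold lower, 15.4 to 21.5) and Anxa6 1122 and 6043 (2.87-fold lower, 2.69 to 3.06). Of 10 imprinted growth genes 2 were higher, Peg10 and Dlk1, and 3 lower. Peg3 had 12 and 1602 reads (71.0-fold lower, 40.5 to 138), Ndn 1 and 303 (161-fold lower, 28.7 to 6387), and Zrsr1 123 and 1024 (4.43-fold lower, 3.67 to 5.38).

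Markers of the labelled cells and of other types were checked in all 4 groups. The 20 mesenchymal markers summed to 2208 RPM in AFT024 and 2160.1 in BFC012 exosomes, with Thy1 at 0 in both. They summed to 6717 and 3517 in the cells. Vim (9690 and 11723 reads) and Zeb1 (5774 and 13365) made up most of the 19959 and 35305 exosome reads of this list. Of its 17 measured members 2 were at least 2-fold higher in AFT024 exosomes (11.8%) and 4 lower (23.5%). The shares of all measured genes were 13.8% and 11.9%. In the cells 7 of the 17 were higher and 3 lower, against 10.7% and 8.06% of all genes there. Mesothelial and urothelial markers summed to 91.6 and 683 in exosomes and 112 and 1942 in cells. Of 10 measured markers 9 were lower in AFT024 exosomes (90%, against 11.9% of all measured genes) and Msln was higher. Wt1, the mesothelial transcription factor, had 1 and 276 reads, and the cadherin Cdh3 1 and 275. Upk3b, Upk1b and Myrf, named above among the lowest genes of AFT024, belong to this list, so list and genes are not independent. A smaller share of such cells and less RNA per cell or vesicle cannot be told apart in bulk samples. Hepatoblast markers summed to 3.21 and 15.3, endothelial markers to 11.8 and 37.7, epithelial markers to 6.75 and 9.73, leukocyte and platelet markers to 27.8 and 36.9 and erythroid markers to 1.44 and 1.35 RPM in exosomes, with 8 of 11 erythroid markers at 0 in both. The part of the other cell types in the results was not tested.

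Differences also varied by chromosome and by gene type. Chromosome 15 had the highest exosome median log2 ratio of 0.53 (0.67 in cells), with 125 of 441 measured genes higher and 18 lower. Chromosome 6 had the lowest, -0.32 (-0.15 in cells), followed by chromosome 18 at -0.31 (-0.37 in cells). Across 20 chromosomes the exosome and cell medians had a Pearson coefficient of 0.870 and a Spearman coefficient of 0.863. Of 75 measured antisense genes 33 were higher and 3 lower, of 94 long intergenic RNAs 32 and 5, and of 104 processed pseudogenes 41 and 9, against 1342 and 1275 of 10540 protein-coding genes. The labels do not say whether strand was kept, so reads of antisense genes and of the genes they overlap cannot be told apart.

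**Figure D5:**
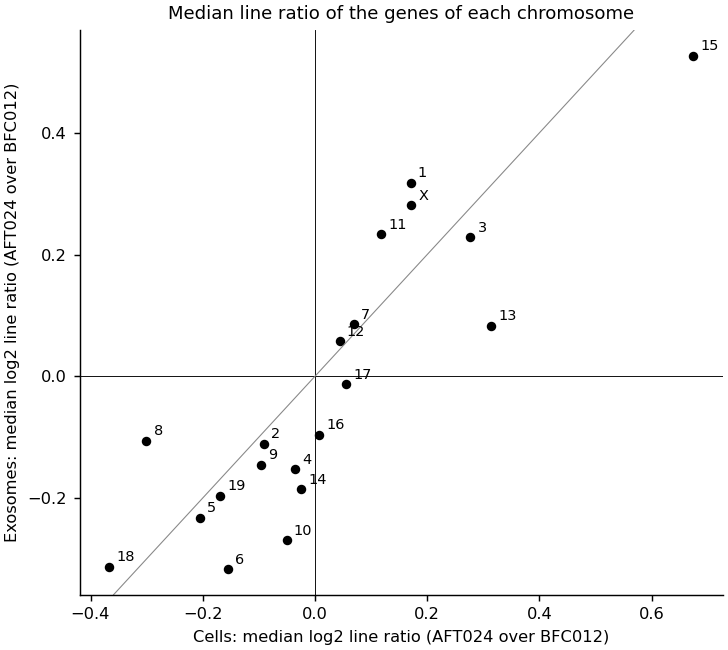
Median log2 read ratio AFT024 over BFC012 per chromosome in exosomes (y axis) against that in cells (x axis), 1 point for each of 20 chromosomes. Chromosome 15 stands highest in both, at 0.53 in exosomes and 0.67 in cells.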

How the data were processed

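The read table the authors deposited holds per-gene values that are whole multiples of a column's smallest positive value; dividing by it gave whole reads within 0.01 for 100% of values. Its columns are named normalized reads, per the file headers; the results rest on the counts recovered from these deposited values. FPKM values were deposited by the authors for autosomal genes in a second table; per the submitters' processing notes, TopHat, Cufflinks, Bowtie and mm10 were used, with no roles or versions given. Starts in that table count from 0 and are given 1-based. Libraries were made from oligo dT-selected RNA and sequenced on a HiSeq2500, per the labels' protocols. How the exosomes were isolated is not given in the sources used here. A further 237 genes are listed at 0 FPKM despite 20 or more exosome reads and are given as listed.

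Rows without an Ensembl identifier (3 of 43629) were left out. Genes with at least 50 reads over both exosome groups were measured, and 99.6% of their identifiers are in GENCODE M21, which gave gene types and exonic lengths. Reads were scaled by the median of ratios (log2 size ratio AFT024 over BFC012 of -0.91, against -0.85 for total reads). A group with 0 reads was set to 3 for a bound. Ratios at or beyond 2-fold were called, and no test was run because each group has 1 merged value. The named genes are the 12 highest and 12 lowest ratios with 500 reads in the higher group and 2-fold in FPKM plus 1, the 8 with the most reads per group, the 8 highest and 8 lowest exosome over cell ratios with 200 reads, and from each of 29 gene and 7 marker lists the 2 with the most reads and the highest and lowest ratio; other list members were named after their values were seen. Members and lists were chosen with earlier results of these data known. Deposited p-values, q-values and fold changes were not used. Work was done in Python 3.11.15 with pandas 2.3.3, numpy 2.4.6, scipy 1.17.1 and matplotlib 3.10.9.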

Additional observations from a re-analysis of the deposited data

Results flagged for a closer look

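Fhl1, a LIM protein of muscle, had a log2 ratio of -1.36 in exosomes and 1.09 in cells, so the lines differed in opposite directions. Fbn1, fibrillin 1, had -1.25 in exosomes and 1.09 in cells. Ppl had 1.56 in exosomes and -1.96 in cells. The difference between exosomes and cells was not tested for any of the 3, since each group has 1 merged value, and the limit of 200 reads for this list was chosen after the values were seen. At the limit of 50 reads, 9 genes were higher in AFT024 exosomes and lower in its cells and 7 the other way.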

How the results depend on the processing

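No paired analysis was possible because the technical replicates of each group were merged into 1 value. With a minimum of 200 reads 973 genes were 2-fold higher and 864 lower, and with no minimum 4863 and 2415. With the deposited FPKM 2215 genes were lower with a pseudocount of 1, 3075 with 0.1 and 2215 with no filter on low values. The rank coefficient of exosome with cell ratios was 0.39 in FPKM and 0.421 for genes within 2-fold in cells, an alternative chosen after seeing the data; the cause was not tested. The higher share of the called genes was 53.6%, 49.4% with total reads (1413 higher and 1445 lower), and 32.4% and 30.5% in FPKM with the 2 pseudocounts (1061 higher with a pseudocount of 1), 58.1% in FPKM relative to its median gene and 66.8% with no minimum of reads. The balance of higher to lower genes therefore turns with total reads and with FPKM. The log2 ratio of Sh3pxd2a was 0.22 in reads and -0.27 in FPKM plus 1. Several other named genes also changed sign, among them Kif1c and Sos2 (0.02 in reads, -0.04 with total reads, -0.47 in FPKM). So did 5 list medians: collagens and matrix (0.05; -0.01 to 0.14), immediate early genes (-0.06 to 0.00), leukocyte and platelet markers (-0.36; -0.42 to 0.34), niche factors (0.02; -0.03 to 0.03), and tubulins and actins (0.50; -0.08 to 0.51). With total-read scaling 124 of 160 named genes moved by less than their counting interval; in FPKM plus 1, 142 moved by more and 11 by less, and 14 of the 35 list medians moved in FPKM relative to its median gene. Depth limits the ratios of genes with few reads, and no alternative covers differences between cultures or preparations.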

Other observations

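Ribosomal protein messages are known for a pyrimidine run at their start. A run, taken as a C followed by further pyrimidines, was searched only in a short stretch around the RefSeq start. Among genes outside that list, 445 with such a run at the RefSeq start had a median exosome log2 ratio of -0.00 and 7655 without it -0.03. Within the list 19 genes with a run had 0.92 and 36 without it 0.98. The search thus found a run in only the smaller part of the list, and the part of such runs in the ratios was not tested. The search was made after the list values were seen. In exosomes and cells of both lines the Y-linked genes Ddx3y, Kdm5d, Eif2s3y, Uty and Zfy1 had 0 reads.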
